A study of Mus musculus with 2 samples.

Results

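The 9 microRNA genes studied are Mir770, Mir673, Mir493, Mir337, Mir540, Mir665, Mir341, Mir1188 and Mir370. They belong to the part of the imprinted Dlk1-Dio3 domain that accompanies the long noncoding RNA genes Meg3 and Rian. They were taken by their symbols in GENCODE M21, by a rule that uses no count but was set with earlier results of these data known, and all 9 were found among the 2202 microRNA genes of each count table. Small RNA was sequenced from tissue labelled as gastrocnemius, a muscle of the calf, of male B6CASTF1/J mouse pups at 4 days of age. This strain is a first-generation hybrid, so every sample carries a C57BL/6 and a CAST genome. The study has 1 group with 2 libraries, labelled biological replicates 2 and 1, from animals numbered 4 and 3. No second genotype, treatment or age was given, so the data allow the level of each gene to be stated per library and the libraries to be compared. The labels give separate biosamples under a single donor identifier, so technical spread, spread between animals and a difference in the tissue sampled cannot be told apart.

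Marker reads went against the tissue label of replicate 2, and it may not be gastrocnemius. Replicates 2 and 1 below mean the libraries that carry those labels. Mir206, a microRNA of skeletal muscle, had 101 reads in replicate 2 and 652657 in replicate 1. Mir208a, which lies in the cardiac myosin gene Myh6 and is known from heart, had 29718 reads in replicate 2 and 59 in replicate 1. Of the 9 skeletal muscle markers, 8 were tested, 3 of them lower and 3 higher in replicate 2. The list's summed share of microRNA reads was 0.479% in replicate 2 and 14.7% in replicate 1. Mir206 alone held 14.6% in replicate 1, so the list's share there mostly repeats its count. The blood list held 0.391% in replicate 2 and 0.0758% in replicate 1, the connective tissue list 0.281% and 0.591%, and the nervous system list 0.0425% and 0.142%, each with replicate 2 given ahead of replicate 1. The endothelial gene Mir126a held 6.62% and 2.54%, and the smooth muscle genes 4.90% and 2.17%, in the same order. All are shares of microRNA reads, of which the Dlk1-Dio3 domain held 0.973% in replicate 2 and 32.9% in replicate 1. With the TMM scaling described below, Mir126a had a log2 ratio (replicate 2 over replicate 1) of 0.75 and the smooth muscle sum 0.55. None of these genes passed the call rule given below. In the blood list 4 of 6 genes were called higher and 1 lower. In the connective tissue list 3 of 3 tested were lower, and in the nervous system list 3 of 4, with 1 higher. In each library 6 of the 10 nervous system markers had 0 reads, and none of the muscle, heart or blood markers did. Replicate 2 held 3073086 sense reads in microRNA genes and replicate 1 held 4458853. Every ratio below sets the library with little Mir206 and much Mir208a against the library with much Mir206 and little Mir208a, and the part of that difference in the ratios was not tested.

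The Dlk1-Dio3 domain is a textbook imprinted region. Its protein-coding genes Dlk1, Rtl1 and Dio3 are expressed from the paternal chromosome, and its noncoding genes Meg3, Rian and Mirg, together with the microRNAs they accompany, are expressed from the maternal one. The microRNAs are thought to be cut from long maternal transcripts, are abundant in embryonic and newborn tissues and in muscle precursor cells, and decline as tissues mature. A microRNA represses messenger RNAs that pair with its seed, the bases from position 2 to position 8. The counts used here do not separate the maternal from the paternal chromosome, and they sum both arms of each hairpin.

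All 9 genes lie on the plus strand of chromosome 12 (mm10) within 54.6 kb, with other microRNA genes of the domain between Mir665 and Mir341. Mir770 (chr12:109563692-109563785) is the only one inside Meg3 as annotated in GENCODE M21, in an intron of 3 of its transcripts and in an exon of 1. Mir673 (chr12:109571990-109572080) starts 263 bases past the annotated end of Meg3 and Mir493 (chr12:109580233-109580315) starts 8506 bases past it. Mir337 (chr12:109585789-109585885), Mir540 (chr12:109586080-109586146) and Mir665 (chr12:109586314-109586407) sit together within 619 bases, between Meg3 and Rtl1 and in neither. Mir341 (chr12:109611500-109611595), Mir1188 (chr12:109611822-109611941) and Mir370 (chr12:109618258-109618336) lie in introns of Rian. The first 6 are called Meg3-linked and the last 3 Rian-linked below. The antisense gene Mir3544 overlaps Mir337 over 61 bases on the minus strand.

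The results turn on Mir337 and on its neighbours Mir493, Mir540 and Mir665, so the mature arms of these 4 genes are given, with the seed in capitals. Sequences are from RefSeq on GRCm38.p6, the assembly also called mm10, and all 9 genes were matched there with 18 mature sequences.
mmu-miR-337-5p: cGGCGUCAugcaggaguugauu
mmu-miR-337-3p: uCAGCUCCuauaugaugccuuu
mmu-miR-540-5p: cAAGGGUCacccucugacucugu
mmu-miR-540-3p: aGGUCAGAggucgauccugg
mmu-miR-665-5p: aGGGGCCUcugccucuauccaggauu
mmu-miR-665-3p: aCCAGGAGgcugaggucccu
mmu-miR-493-5p: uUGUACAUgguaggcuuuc
mmu-miR-493-3p: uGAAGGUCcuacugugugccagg

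The hairpin of Mir337, the gene whose ratio stood apart from its neighbours, is shown with its 5p and 3p mature arms in capitals, because the overlapping gene Mir3544 is read from the opposite strand of the same bases.
Mir337 hairpin: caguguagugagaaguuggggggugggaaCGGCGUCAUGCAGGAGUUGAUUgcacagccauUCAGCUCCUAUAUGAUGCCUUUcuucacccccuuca

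The 18 mature sequences carried 18 different seeds, so no member shared a seed with another. Only 3 of the 18 had the seed of any other annotated mouse microRNA. One is miR-370-5p, which has the seed of miR-1193-3p, from a gene of the same domain, and the pair is shown for that shared seed.
mmu-miR-370-5p: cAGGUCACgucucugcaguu
mmu-miR-1193-3p: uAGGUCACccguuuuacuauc
Mir1193 had 149 reads in replicate 2 and 4136 in replicate 1. The other genes with a shared seed were Mir6915 (miR-540-3p), with 4 and 9 reads in replicates 2 and 1, and Mir6985 (miR-673-5p), with 1 and 0 reads, so neither reached 10 reads. No member shared a stretch of 22 or of 18 bases with another annotated microRNA gene, apart from Mir337 with its overlapping partner Mir3544. Members' hairpins had a GC content of 52.6 to 70.2% with a median of 59.4%, and the other 46 domain genes tested had 29.1 to 72.3% with a median of 45.7%.

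The start of Meg3, the most upstream noncoding gene among those accompanied, is shown, and its part in the ratios was not tested. The window runs from 250 bases before to 50 after its first start in RefSeq (GRCm38.p6, chr12:109540746-109541045, plus strand). Capitals mark matches, on either strand, to TGACGTCA, the consensus of the cyclic AMP response element, to CCAAT and to TATAAA, which matched on both strands with an overlap.
Meg3 promoter: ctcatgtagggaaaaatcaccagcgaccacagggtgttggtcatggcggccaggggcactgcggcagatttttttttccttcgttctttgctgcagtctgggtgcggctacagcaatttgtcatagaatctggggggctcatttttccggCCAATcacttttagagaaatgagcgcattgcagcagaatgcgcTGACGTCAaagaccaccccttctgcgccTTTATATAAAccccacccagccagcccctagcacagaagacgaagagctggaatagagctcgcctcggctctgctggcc
Of 32851 such windows in the RefSeq table, 1.79% held TGACGTCA, 37.4% held CCAAT and 13.6% held TATAAA. The window shown holds 13 CpG sites, a number that 37.9% of all windows reach. The window at a later Meg3 start (chr12:109545148-109545447) holds 1 CpG site, and that of Rian (chr12:109603695-109603994) holds 0. Neither of these holds a match to TGACGTCA, CCAAT or TATAAA. The matches in the window shown describe letters, and no binding or methylation was measured here.

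All 9 genes were lower in replicate 2, the library whose markers go against its label. Of the 8 with reads in both libraries, 6 were lower by more than 100-fold on the TMM scale and 4 when scaled by total sense reads. Together they held 1722 reads in replicate 2 and 121657 in replicate 1. That is 0.0560% of microRNA reads in replicate 2 (95% interval 0.0534 to 0.0587%) and 2.73% in replicate 1 (2.71 to 2.74%). Of 410 genes with at least 10 reads over both libraries, 148 (36.1%) were lower in replicate 2 and 72 (17.6%) were higher. The split depends on the scaling, with 127 lower and 100 higher under DESeq2 size factors and 115 lower and 135 higher under total sense reads. A gene was called with an adjusted p under 0.05 in a two-sided exact binomial test with Benjamini-Hochberg adjustment and a log2 ratio of at least 1 in size. Of the members, 9 of 9 were called lower and 0 higher, with an adjusted p of 6.12e-63 for Mir1188, the member with the fewest reads, and values below the smallest number that could be written for the other 8. The test compares the reads of these libraries and measures departure from counting noise, not from the spread between animals. No estimate of that spread can be had apart from the difference between the libraries itself. Levels are given as CPM, the reads of a gene scaled to 1000000 sense microRNA reads of its library. Ratios are scaled by TMM, which leaves the most extreme genes out of the scaling. This sets them below the ratio of the CPM values by 0.63 on the log2 scale, before a prior count of 1 is added. For members with few reads in replicate 2 the prior count makes the gap smaller. In bulk tissue, fewer cells that make a microRNA and less of it per cell cannot be told apart.

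**Figure D1:**
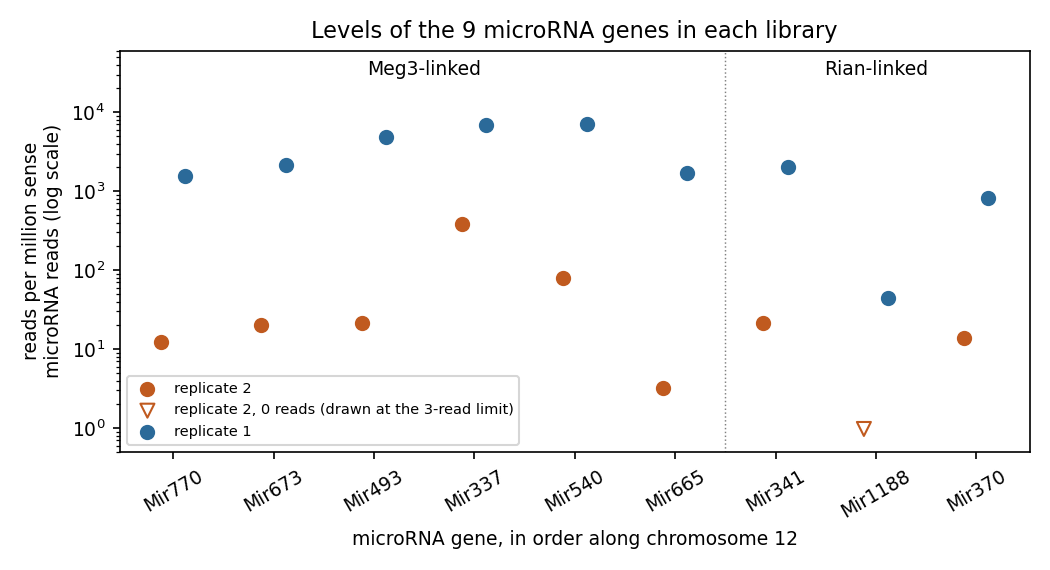
Level in CPM (vertical axis, log scale) for the 9 genes in chromosomal order, with replicate 2 in orange and replicate 1 in blue, 1 library each. Every replicate 2 point lies below its replicate 1 point. The open triangle marks Mir1188, with 0 reads in replicate 2, at the limit of 0.976 CPM that a count of 0 allows.

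Among the Meg3-linked genes, Mir540 and Mir337 were the most abundant in both libraries. Mir540 had 244 reads in replicate 2 and 31944 in replicate 1, which is 79.4 CPM and 7164 CPM. It ranked at 162 of all genes in replicate 2 and at 29 in replicate 1. Its log2 ratio of replicate 2 over replicate 1 was −7.12 (95% counting interval −7.31 to −6.94). That is 139-fold lower on the TMM scale and 89.9-fold lower by total sense reads with the same prior count. Mir337 had 1195 reads in replicate 2 and 30932 in replicate 1, or 389 and 6937 CPM. It ranked at 95 in replicate 2 and at 30 in replicate 1, and its log2 ratio was −4.78 (−4.87 to −4.70), 27.5-fold lower. The replicate 1 levels of these neighbours were close, and their replicate 2 levels were not.

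Mir493 was next in replicate 1. In human colon carcinoma cells its product is known as a repressor of the receptor gene IGF1R. It had 65 reads in replicate 2 and 21693 in replicate 1, or 21.2 and 4865 CPM, with a log2 ratio of −8.45 (−8.85 to −8.12). Mir665, 167 bases past Mir540, had 10 reads in replicate 2 and 7684 in replicate 1, or 3.25 and 1723 CPM. Its log2 ratio of −9.53 (−10.74 to −8.80) was the lowest of the 9, and the 10 reads leave its interval the widest among members with reads in both libraries. Mir493 and Mir665 fell further than Mir540, while they had fewer reads in replicate 1.

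The genes at the Meg3 end were less abundant. Mir673 had 63 reads in replicate 2 and 9557 in replicate 1, or 20.5 and 2143 CPM, a log2 ratio of −7.31 (−7.72 to −6.98). Mir770, the gene within Meg3, had 38 reads in replicate 2 and 6956 in replicate 1, or 12.4 and 1560 CPM, a log2 ratio of −7.57 (−8.11 to −7.15). The intervals of Mir673, Mir770 and Mir540 overlapped.

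The 3 Rian-linked genes were lower in replicate 2 too. Mir341 had 65 reads in replicate 2 and 9042 in replicate 1, or 21.2 and 2028 CPM, with a log2 ratio of −7.19 (−7.58 to −6.86). Mir370, whose product is known in human liver cells as a repressor of the fatty acid oxidation gene CPT1A, had 42 reads in replicate 2 and 3650 in replicate 1, or 13.7 and 819 CPM. Its log2 ratio was −6.50 (−7.01 to −6.09). Mir1188, 226 bases past Mir341, was the least abundant member, with 0 reads in replicate 2 and 199 in replicate 1. It had 44.6 CPM in replicate 1, and the count of 0 allows up to 0.976 CPM in replicate 2. Set against 3 reads in replicate 2, it was at least 45.7-fold lower there by CPM, or 70.6-fold on the TMM scale. The exact 95% interval of its TMM ratio, which allows more than 3 reads, ended at −5.83.

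In replicate 1 the order of levels was Mir540, Mir337, Mir493, Mir673, Mir341, Mir665, Mir770, Mir370 and Mir1188, and each gene exceeded the next beyond counting error. The closest neighbours were Mir540 and Mir337, with 50.8% of their joint reads from Mir540 (exact 95% interval 50.4 to 51.2%). In replicate 2 Mir337 led, followed by Mir540, and the step down after each was beyond counting error. Mir493, Mir341, Mir673, Mir370 and Mir770, with 65 to 38 reads, were not separated from their neighbours in the order, as the interval of each adjacent pair included 50%. Of the 10 pairs among these 5 genes, 5 did separate. Mir493 and Mir341 each exceeded Mir370 and Mir770, and Mir673 exceeded Mir770. Mir665 and then Mir1188 came last. Levels are reads per hairpin and were not corrected for ligation or amplification preferences, so an order within a library holds for reads only.

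**Figure D2:**
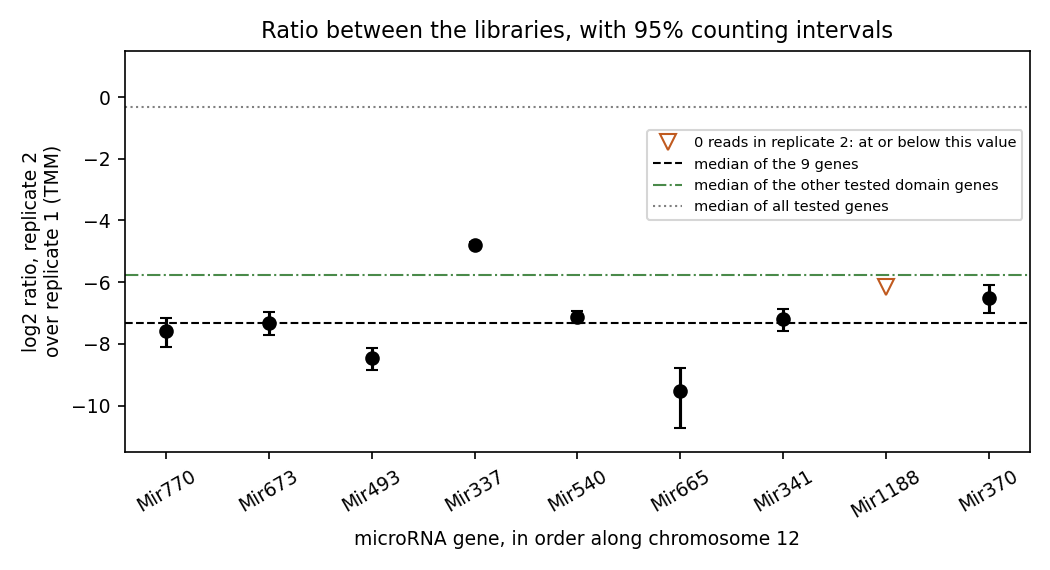
Log2 ratio of replicate 2 over replicate 1 for each of the 9 genes, scaled by TMM, with 95% counting intervals as bars and a triangle for Mir1188 at its bound of −6.14. The dashed line is the median of the 9 genes (−7.31), the green line that of the other tested domain genes (−5.78) and the dotted line that of all 410 tested genes (−0.33). Mir337 stands above the others and Mir665 below.

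The 9 genes did not keep their proportions between the libraries. Mir337 made up 69.4% of the members' reads in replicate 2 (95% interval 67.2 to 71.6%) and 25.4% in replicate 1 (25.2 to 25.7%). The share of Mir540 was 14.2% in replicate 2 (12.6 to 15.9%) and 26.3% in replicate 1 (26.0 to 26.5%). Mir493 made up 3.77% and 17.8%, and Mir665 made up 0.581% and 6.32%, of the members' reads in replicates 2 and 1. The share of Mir370 was 2.44% in replicate 2 (1.76 to 3.28%) and 3.00% in replicate 1 (2.91 to 3.10%), and these intervals overlapped.

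**Figure D3:**
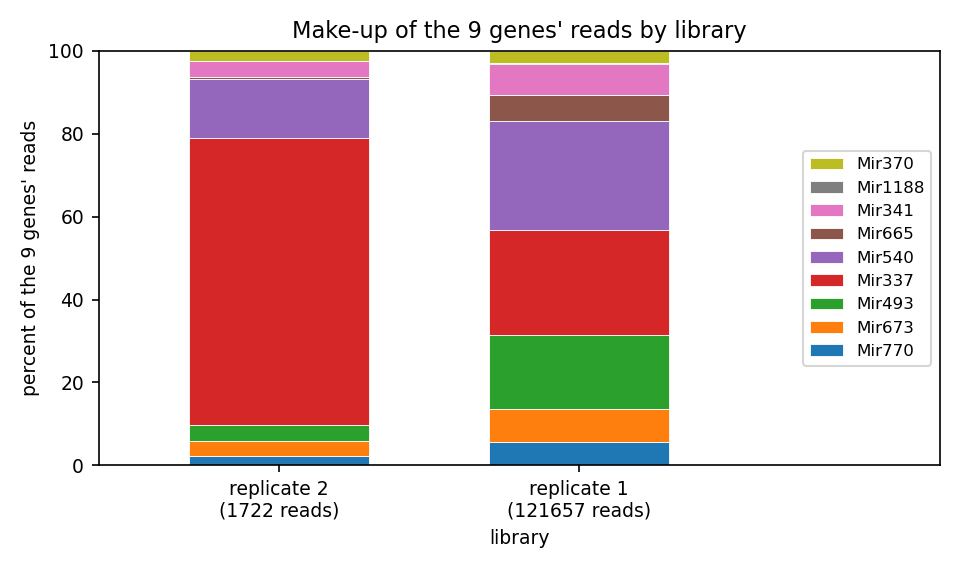
Percent of the members' reads (vertical axis) held by each of the 9 genes, stacked in chromosomal order from the bottom, in replicate 2 (1722 reads) and replicate 1 (121657 reads). Mir337, in red, takes 69.4% of replicate 2 and 25.4% of replicate 1.

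These differences in proportion do not depend on how the libraries are scaled, because the reads of one gene are divided by those of another in the same library. Of the 36 pairs of members, 23 had a change in their read ratio whose exact 95% interval left out 0 on the log2 scale, all 8 pairs with Mir337 among them. Against Mir540, which lies 194 bases further along the same strand, Mir337 was higher in replicate 2 relative to replicate 1 by a log2 odds ratio of 2.34 (2.14 to 2.54). Against Mir665 the value was 4.89 (4.01 to 5.96), and against Mir370 it was 1.75 (1.30 to 2.23). For some genes that lie further apart no change in proportion was detectable at this depth. Mir673 over Mir341 had a log2 odds ratio of −0.13 (−0.65 to 0.40), and Mir540 over Mir341 had 0.09 (−0.31 to 0.51). Among the 28 pairs without Mir337, 15 had an interval that left out 0, and Mir493 or Mir665 took part in 11 of these. The other 4 were the pairs of Mir370 with Mir770, Mir673, Mir540 and Mir341. The intervals cover counting error only, and with 1 library on each side the spread between animals has no estimate of its own.

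Taken as sums, the Rian-linked genes had 107 reads in replicate 2, against 12891 in replicate 1. The Meg3-linked genes had 1615 in replicate 2, against 108766 in replicate 1. The log2 odds ratio of Rian-linked over Meg3-linked reads was −0.84 (−1.14 to −0.55), replicate 2 over replicate 1. Mir337 decided the sign. Without it the Meg3-linked genes had 420 reads in replicate 2, against 77834 in replicate 1, and the value was 0.62 (0.30 to 0.93).

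Mir337 was also the only member with antisense reads. On the minus strand it had 0 reads in replicate 2 and 182 in replicate 1. The overlapping gene Mir3544 had 0 sense reads in replicate 2 and 172 in replicate 1. The antisense reads made 0.585% of the reads on both strands of Mir337 in replicate 1 (0.503 to 0.676%). In replicate 2, 0 of 1195 reads allows up to 0.251%. The other 8 genes had 0 antisense reads in both libraries. Where strand is ignored, reads in the overlap belong to neither gene, and Mir337 is left with 0 reads in replicate 2 and 10 in replicate 1.

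The rest of the domain was lower in replicate 2 as well. All 6 tested of the 7 genes listed as Rtl1-antisense were called lower, and so were all 40 tested of the 51 other domain genes. The share was 36.1% over all tested genes, the domain included. Outside the domain 93 of 355 tested genes were called lower. Of the Rtl1-antisense list, Mir3071 lies on the minus strand, as Rtl1 itself does. It had 0 reads in replicate 2 and 28 in replicate 1. The median log2 ratio was −7.31 over the 9 members (−7.19 with Mir1188 at its bound), −6.05 over the Rtl1-antisense genes and −5.78 over the other domain genes. Setting genes with 0 reads in replicate 2 to their bounds left the medians of the Rtl1-antisense genes and of the other domain genes at −6.05 and −5.78. The median was 0.05 over the 355 tested genes outside the domain. Leaving out genes under 1000 reads in total, Mir3071 among them, gave medians of −7.25 over 8 members and −6.56 over 5 Rtl1-antisense genes. The median over 32 other domain genes was then −5.97. The 3 genes with most reads in the rest of the domain were Mir127, Mir411 and Mir487b. Mir127, which lies antisense to Rtl1 and is known as a repressor of it, had 7304 reads in replicate 2, against 269519 in replicate 1, a log2 ratio of −5.29. For Mir411 the counts were 5052 in replicate 2, against 260343 in replicate 1 (−5.78). For Mir487b they were 795 in replicate 2, against 174719 in replicate 1 (−7.87).

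Most members lay toward the low end of the domain. Among the 48 domain genes with reads in both libraries, ranked from the highest ratio, Mir337 came at 7 and the other 7 members between 31 and 48. Of the 40 others, 6 had a ratio at or below the median of these members (−7.25). The members held 5.76% of the domain's reads in replicate 2 (5.50 to 6.03%) and 8.29% in replicate 1 (8.25 to 8.33%). The log2 odds ratio of members over the rest of the domain was −0.56 (−0.64 to −0.49), and without Mir337 it was −1.85 (−1.98 to −1.73). Ratios as low as those of most members were thus found elsewhere in the domain too. Across the 45 domain genes with at least 1000 reads in total, the ratio was compared with the distance from the start of Meg3. Pearson's r was 0.31 and Spearman's rho 0.24. Over all 55 tested domain genes the values were 0.23 and 0.18. These genes share the same pair of libraries and are not independent points, and the relation is weak.

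**Figure D4:**
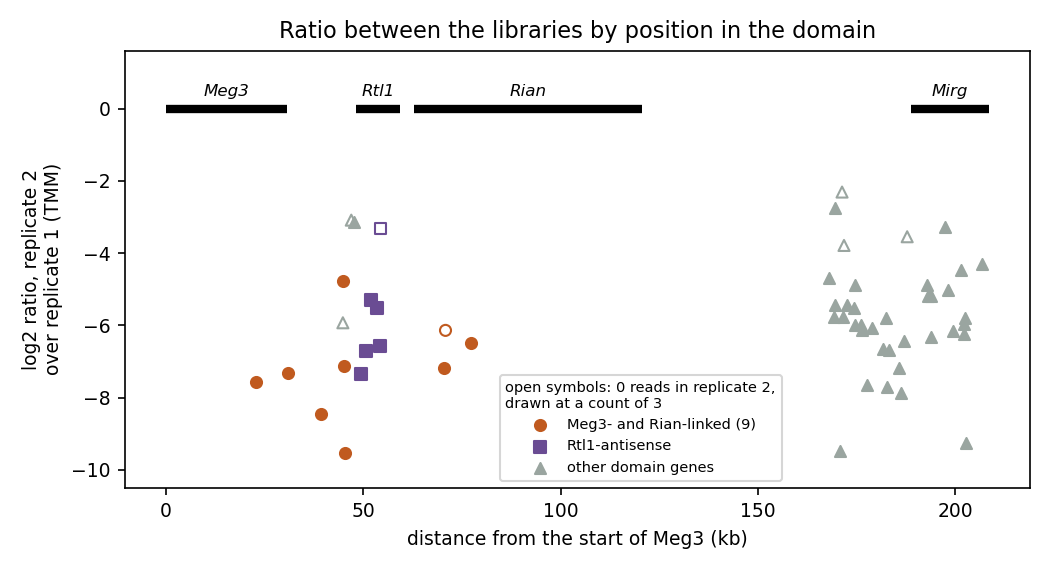
Log2 ratio of replicate 2 over replicate 1 (TMM) of the 55 tested domain genes against distance from the start of Meg3 in kb, with the extents of Meg3, Rtl1, Rian and Mirg as bars at 0. Orange circles are the 9 Meg3- and Rian-linked genes, purple squares the Rtl1-antisense genes and grey triangles the other domain genes, with open symbols for 0 reads in replicate 2. All points lie below 0, and Mir337 (−4.78) and Mir665 (−9.53) lie within 619 bases of each other.

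Outside the domain, the 3 genes with at least 100 reads whose ratio was nearest to the members' median were Mir615, Mir196b and Mir133b. Likeness here is a single ratio over 2 libraries. Mir615 had 27 reads in replicate 2 and 2589 in replicate 1, a log2 ratio of −6.62 (−7.28 to −6.13). Mir196b had 197 reads in replicate 2 and 48288 in replicate 1, a log2 ratio of −8.02 (−8.24 to −7.83). Both are known from Hox clusters. Mir133b, a microRNA of skeletal muscle, had 10 reads in replicate 2 and 427 in replicate 1, a log2 ratio of −5.37 (−6.58 to −4.61). Of the 218 genes outside the domain with at least 100 reads, 3 had a ratio at or below the members' median.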

How the data were processed

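For each library the authors deposited raw counts of reads per microRNA gene, in an unstranded, a sense and an antisense column, on mm10 with GENCODE M21, per the deposited description files. The sources used here do not give the aligner or the trimming. The sense column was used. Summary lines stayed out of library sizes. In replicates 2 and 1 they held 8.60% and 9.97% unmapped, 45.1% and 35.7% multimapping and 3.83% and 2.05% unannotated reads, with 0 ambiguous. Columns of other samples numbered 0.

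All 2202 gene identifiers matched GENCODE M21. CPM and shares refer to sense microRNA reads. Log2 ratios (replicate 2 over replicate 1, prior count 1) used TMM sizes from edgeR 4.0.16 in R 4.3.3. Before the prior count, TMM ratios lie below CPM ratios by 0.63 on the log2 scale. Tests ran over all genes with at least 10 reads in total. The binomial test was tested on simulated data with counting noise only, so spread between animals was not covered. Intervals are exact at 95% (Clopper-Pearson for shares, conditional for odds ratios) and, like the limit of 3 counts for a count of 0, cover counting error only. No molecular identifiers are named.

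The genes named are the 9 members, the 3 most abundant other domain genes, the 3 genes outside the domain nearest in ratio, Mir206, Mir208a, and genes sharing a member's seed. Mir3544 was added after its values were seen. Members and lists were chosen with earlier results of these data known. Alternatives were DESeq2 1.42.0 size factors, total reads, other filters and priors, the unstranded column and the edgeR exact test. Python 3.11.15 with scipy 1.17.1 was used.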

Additional observations from a re-analysis of the deposited data

Results flagged for a closer look

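Antisense reads stood out on a single member. Mir337 had 0 antisense reads in replicate 2 and 182 in replicate 1, above the limit of 3 that a count of 0 allows, in a column that the comparisons between the libraries do not use. The overlapping minus-strand gene Mir3544 had 172 sense reads in replicate 1, so some of the 182 lie outside it. Within the overlap, reads of the one on its own strand cannot be told apart from antisense reads of the other.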

How the results depend on the processing

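All 63 member values recomputed under other scalings, filters, priors and the unstranded column were again called lower. The filters leave each member's ratio as it was, and the prior leaves the p of the test as it was. These entries could therefore hardly have come out otherwise. Across the 4 scalings the log2 ratio of Mir337 ran from −4.92 to −4.16 and that of Mir665 from −9.66 to −8.94. In the unstranded column Mir337 was fitted at −3.42 from 0 reads in replicate 2 and 10 in replicate 1, a value that depends on the prior count. None of its sense reads remain in that column, so this entry among the 63 does not recompute its main ratio. Against TMM, DESeq2 size factors moved the median over all tested genes by 0.26, total reads by 0.59 and TMM without the domain by −0.13. Calls higher in replicate 2 were 32.7% of all calls under TMM, 54.0% when scaled by total reads and 44.1% by DESeq2 size factors. Higher genes numbered 135 with total reads and 45 with at least 100 reads. The edgeR exact test called 0 genes lower, 0 higher and 0 members, with 28 genes at an unadjusted p under 0.05. Its common dispersion of 1.23 comes from the difference it tests, so these counts of 0 say nothing about the members. The unstranded column, which leaves out every sense read of Mir337, gave a Rian-linked over Meg3-linked log2 odds ratio of 0.62. Leaving out Mir337, chosen after seeing the data, gave 0.62. Both values rest on nearly the same reads and count as a single alternative. Leaving out Mir341 gave −0.44. In replicates 2 and 1 the members' share was 0.0239% and 2.31% of unstranded reads, and 0.0238% and 1.43% of all reads. Their share of the domain was 1.93% and 6.75% unstranded, and 1.84% and 6.32% without Mir337. Leaving out a library leaves no ratio, so each library's own values stand in its place. No paired analysis was possible because there is a single group. Replicate 2 had 0 to 65 reads for 7 members, and their order there is limited by depth.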
